A study of Mus musculus with 12 samples.

Results

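The 9 genes described here encode FGF ligands (Fgf4, Fgf5, Fgf8, Fgf15 and Fgf17) and all FGF receptor tyrosine kinases (Fgfr1, Fgfr2, Fgfr3 and Fgfr4). They were taken by symbol from the 51467 genes of the count table, with GENCODE giving the symbol of each gene ID, and all 9 were present. RNA of mouse embryonic stem cells (ESCs) and of epiblast-like cells (EpiLCs) derived from them was sequenced as a nascent (4sU) and a total fraction, with 3 libraries in each of 4 groups. ESCs were grown with serum, LIF and 2i, a pair of inhibitors in which PD0325901 blocks MEK, the kinase above ERK, and CHIR99021 blocks GSK3. EpiLCs came from the same ESCs, carried through to about 56 h after LIF and 2i were withdrawn. The EpiLC groups thus differ from the ESC groups in LIF and the inhibitors as well as in cell state. In all 4 groups cells received 500 µM 4-thiouridine for 30 min before lysis, and the RNA was divided into a part from which labelled molecules were captured and a part depleted of ribosomal RNA. All libraries come from a single reporter ESC line, and the study's text calls the replicates biological. The sources used here do not say what separates the 3 libraries of a group, so p-values measure the spread between these libraries, which may be technical in part.

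FGFs are secreted ligands that bind receptor tyrosine kinases together with heparan sulfate and switch on the RAS-ERK cascade. In mouse ESCs, Fgf4 made by the cells themselves is the ligand known to drive ERK and exit from the naive state, and the MEK inhibitor of 2i blocks that signal downstream of the receptor. Fgf5 is a classical marker of the early post-implantation epiblast, Fgf8 and Fgf17 are related ligands of the gastrulating embryo and the brain, and Fgf15 belongs to the endocrine branch that works with klotho co-receptors.

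The depth of the 4sU libraries was 3097693 to 5385644 counted reads and that of the total libraries 9300845 to 21975684, so nascent values of the weakly expressed members carry the larger counting error. The labelled cell types matched their markers: all 8 naive markers were lower and 5 of 6 formative markers higher in EpiLC total RNA. ESC replicate 3 stood apart from ESC replicates 1 and 2 in both assays on the third principal component, and results that depend on it are given with and without it. Markers of other cells moved as well. The summed level of 7 fibroblast markers was 3.88 to 4.73 CPM (read counts relative to library size, with that size adjusted by TMM factors) in ESC total and 14.6 to 18.9 CPM in EpiLC total libraries, with Postn and Dcn at 0 reads in ESC total and Lum at 0 reads in EpiLC total. Of 7 primitive streak markers, 3 were tested and 2 were higher in EpiLC total RNA, and their sum was 18.1 to 28.5 CPM in ESC total and 21.3 to 32.5 CPM in EpiLC total. The sum over 6 primitive endoderm markers was 5.04 to 11.9 CPM and 18.2 to 21.3 CPM, that over 4 neuroectoderm markers 10.8 to 18.4 CPM and 26.3 to 33.0 CPM, and that over 5 trophoblast markers 42.5 to 43.7 CPM and 10.5 to 12.3 CPM, in the same order. In nascent RNA the primitive streak sum was 23.6 to 30.6 CPM in ESCs and 47.5 to 100 CPM in EpiLCs, without the overlap seen in total RNA. The part of these other cells in the changes below was not tested, and in bulk RNA fewer cells of a type and less RNA per cell cannot be told apart.

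Promoter sequence was held by the RefSeq table (GRCm38.p6, the build of the counts, mm10) for 5 of the 9 members: Fgf4, Fgf5, Fgfr2, Fgfr3 and Fgfr4. The 3 printed here belong to the ligand that fell, the ligand that rose most and the receptor that fell. Each runs 5′ to 3′ on the gene's strand from 250 bases before to 50 bases after the start site. Capitals mark matches to GGGCGG (GC box), CCAAT or TATAAA on either strand.
Fgf4, chr7:144861136-144861435, + strand: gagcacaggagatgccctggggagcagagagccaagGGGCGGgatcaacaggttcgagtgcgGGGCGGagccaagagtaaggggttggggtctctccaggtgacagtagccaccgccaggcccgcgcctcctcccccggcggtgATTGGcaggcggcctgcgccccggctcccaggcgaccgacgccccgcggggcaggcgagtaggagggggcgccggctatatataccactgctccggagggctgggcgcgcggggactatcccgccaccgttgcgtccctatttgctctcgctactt
Fgf5, chr5:98253934-98254233, + strand: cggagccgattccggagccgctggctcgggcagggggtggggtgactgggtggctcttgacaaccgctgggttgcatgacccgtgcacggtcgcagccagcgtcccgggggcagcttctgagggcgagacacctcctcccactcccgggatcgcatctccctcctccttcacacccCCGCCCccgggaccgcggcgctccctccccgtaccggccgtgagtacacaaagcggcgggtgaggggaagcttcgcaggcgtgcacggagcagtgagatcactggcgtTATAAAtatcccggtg
Fgfr4, chr13:55152568-55152867, + strand: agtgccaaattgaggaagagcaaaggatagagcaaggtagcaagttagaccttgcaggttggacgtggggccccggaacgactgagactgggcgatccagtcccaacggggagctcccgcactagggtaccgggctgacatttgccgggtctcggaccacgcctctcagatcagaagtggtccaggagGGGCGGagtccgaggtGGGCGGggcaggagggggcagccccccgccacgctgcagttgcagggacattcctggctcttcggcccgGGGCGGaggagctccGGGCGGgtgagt
The letters GGGCGG occurred 2 times in the Fgf4 window, 1 time in that of Fgf5 and 4 times in that of Fgfr4, and 35.7% of all 32851 promoter windows in the table hold them. The Fgf4 window also held 1 CCAAT match, on the opposite strand, a pentamer found in 37.4% of windows. The TATAAA match in the Fgf5 window lay downstream of the start site, beginning 34 bases after it, and 13.6% of windows hold these letters. The 3 windows were rich in G and C, with 69.7%, 68.3% and 65.3% for Fgf4, Fgf5 and Fgfr4, at the 90.4th, 88.5th and 83.0th percentile of all windows, and they held 28, 29 and 20 CpG dinucleotides. The octamer ATGCAAAT and the letters TAATCC, searched on both strands, had no match in any window of the 5 members and occur in 1.74% and 7.06% of all windows.

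Within total RNA, Fgf4 gave way from nearly the whole of the message of the FGF genes in ESCs to 35.4% of it in EpiLCs, while Fgf5, Fgf8, Fgf15 and Fgf17 rose. Among receptors, Fgfr1 was the most abundant in every library and rose, Fgfr2 and Fgfr3 rose from low levels, and Fgfr4 fell to a few reads. The mRNA change (EpiLC total against ESC total) was tested with limma-voom over 14731 genes that reached 3 CPM in 3 or more libraries. A gene was called when its log2 fold change exceeded 1 in size and its p, adjusted by Benjamini-Hochberg, was under 0.05. Of the 9 members 8 passed that filter. Fgf5, Fgf8, Fgf15 and Fgfr3 passed it through EpiLC libraries alone, so they could be tested only because they were higher there, and counts over the tested members are a description. In total RNA 7 of the 8 were called higher and 1 lower, where 27.6% of all genes tested were called, 16.3% higher and 11.2% lower. In nascent RNA 5 were called higher and 1 lower, where 25.5% of all genes were called, 11.9% higher and 13.5% lower. For each of the 9 members the ESC and EpiLC libraries did not overlap in CPM in either assay. Over all genes tested the share without overlap was 68.6% in total RNA and 60.7% in nascent RNA.

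**Figure D1:**
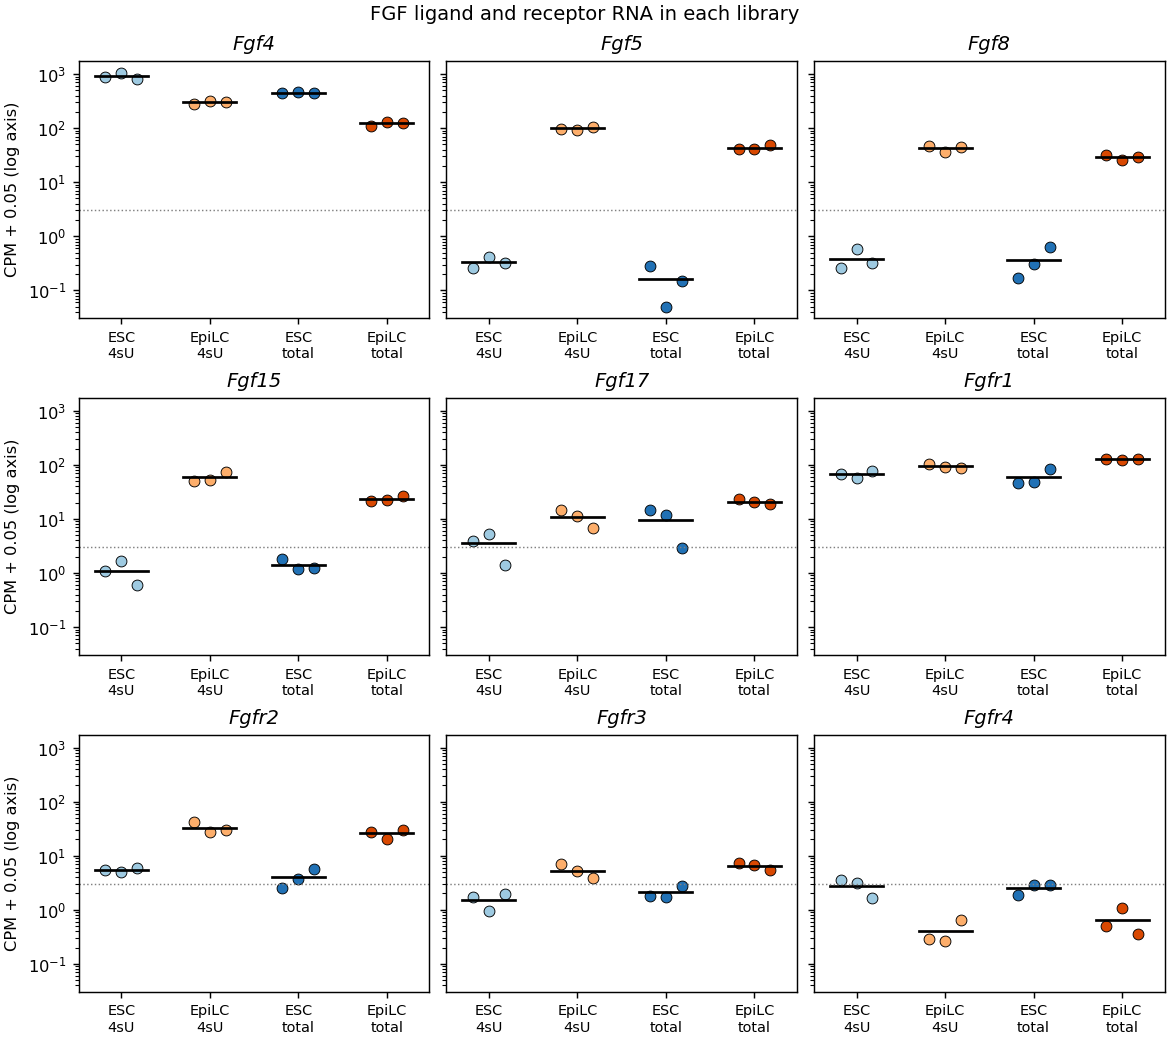
TMM-adjusted CPM of each member in the 12 libraries, plotted as CPM plus 0.05 on a log axis, with 1 point per library (replicates 1 to 3 from left to right), a bar at the group mean and a dotted line at 3 CPM. Fgf4 and Fgfr4 are lower in EpiLCs and the other 7 members higher, and the ESC replicate 3 points of Fgf17 lie below those of replicates 1 and 2 in both assays.

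Fgf4 (ENSMUSG00000050917.5, chromosome 7, 144861386 to 144865243, + strand) had the highest level per kb of exon of all members in both cell types. In CPM, not scaled for length, its mean of 122 in EpiLC total RNA lay beside the 126 of Fgfr1. Its total RNA was 448, 459 and 454 CPM in ESC replicates 1 to 3 and 110, 130 and 127 CPM in EpiLC replicates, and its nascent RNA was 889, 1057 and 795 CPM against 281, 315 and 301 CPM. Every EpiLC library lay below every ESC library of the same assay, and the 3 ESC total libraries differed among themselves by little (453 ± 5.67 CPM, SD, n = 3). The log2 fold change was −1.89 ± 0.10 (SE) in total RNA with an adjusted p of 7.76e-10, and −1.61 ± 0.10 in nascent RNA with an adjusted p of 1.71e-08. Scaled per kb of exon, the fallen EpiLC total level of 40.3 ± 3.49 CPM per kb (SD, n = 3) still lay at the 84.1th to 86.7th percentile of all genes tested in the same library.

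Fgf5 (ENSMUSG00000029337.2, chromosome 5, 98254184 to 98277030, + strand) went from almost no reads to a moderate level. The ESC total libraries held 4, 0 and 1 reads and the ESC 4sU libraries 1, 2 and 1 reads, against 369, 438 and 484 reads in EpiLC total and 404, 442 and 360 reads in EpiLC 4sU libraries. The 0 in ESC total replicate 2 allows a level of up to 0.151 CPM (3 reads of that library). On summed reads the EpiLC level was 413 times the ESC level in total RNA (95% exact interval 177 to 1274) and 346 times in nascent RNA (135 to 1273). These intervals, like the others below, come from the Clopper-Pearson method on reads without molecular identifiers and cover counting error only. The fitted log2 fold changes were 8.78 ± 0.57 and 8.01 ± 0.57, with adjusted p-values of 7.7e-09 and 6.8e-08.

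Fgf8 (ENSMUSG00000025219.13, chromosome 19, 45736798 to 45742915, − strand) rose in the same way. It had 2, 5 and 6 reads in ESC total and 281, 266 and 296 reads in EpiLC total libraries, and 1, 3 and 1 against 201, 168 and 150 reads in 4sU libraries. The lowest EpiLC library therefore lay far above the highest ESC library in each assay. Summed reads gave a ratio of 104 in total RNA (95% exact interval 60.3 to 196) and 119 in nascent RNA (50.8 to 369), and the fit gave log2 fold changes of 6.71 ± 0.45 and 6.61 ± 0.57, with adjusted p-values of 1.18e-08 and 3.76e-07.

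Fgf15 (ENSMUSG00000031073.6, chromosome 7, 144896531 to 144900953, + strand) lies 31.3 kb downstream of Fgf4 on the same strand, and these neighbours moved in opposite directions. Total RNA of Fgf15 was 1.80, 1.16 and 1.18 CPM in ESCs and 21.5, 22.4 and 26.1 CPM in EpiLCs, a log2 fold change of 4.07 ± 0.29 with an adjusted p of 1.91e-08. Nascent RNA was 1.02, 1.61 and 0.542 CPM in ESCs, from only 5, 9 and 2 reads, and 50.0, 51.9 and 74.8 CPM in EpiLCs. This was a log2 fold change of 5.65 ± 0.48 with an adjusted p of 3.23e-07. The rise was thus larger in nascent than in total RNA by 1.59 ± 0.56 on the log2 scale, a difference tested below. On summed reads it was 16.8-fold in total RNA (95% exact interval 13.01 to 21.9) and 50.9-fold in nascent RNA (31.1 to 89.6), intervals that do not overlap but leave out the spread between libraries.

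Fgf17 (ENSMUSG00000022101.5, chromosome 14, 70636205 to 70642268, − strand) was the member whose result turned on ESC replicate 3. Total RNA was 14.4, 11.7 and 2.85 CPM in ESCs and 23.0, 20.5 and 18.8 CPM in EpiLCs. Nascent RNA was 3.88, 5.19 and 1.36 CPM in ESCs and 14.4, 11.2 and 6.82 CPM in EpiLCs. ESC replicate 3 was the lowest ESC library in both assays, which widened the spread but left the groups apart. In total RNA the log2 fold change was 1.19 ± 0.37 with an adjusted p of 0.011. Without ESC total replicate 3 it was 0.67 with an adjusted p of 0.00297, below the fold threshold, and without both ESC replicate 3 libraries it was 0.66. In nascent RNA it was 1.67 ± 0.81 with an adjusted p of 0.0978, not called by limma-voom over all libraries. The other tools called it, edgeR's quasi-likelihood test at 1.58 (adjusted p = 0.0238) and DESeq2 at 1.67 (adjusted p = 0.00312). So did limma-voom with sample quality weights (1.36, adjusted p = 0.0384), with the 4sU libraries alone (1.73, adjusted p = 0.0037) and with the number as a replicate block (1.60, adjusted p = 0.007). It was also called without ESC total replicate 3 (1.67, adjusted p = 0.00208), without ESC total replicate 1 (1.72, adjusted p = 0.0468) and without both ESC replicate 3 libraries (1.20, adjusted p = 0.00451).

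The 5 ligands can be set against the other 17 FGF genes only per kb of exon. In that unit, Fgf4 made up 91.2% ± 1.34 (SD, n = 3) of the summed level of all 22 FGF genes in ESC total RNA and 35.4% ± 2.53 in EpiLC total RNA. In nascent RNA its share was 95.6% ± 0.725 and 45.1% ± 2.98. In EpiLC total RNA Fgf8 took 18.7% ± 2.22, Fgf5 15.3% ± 0.935, Fgf15 11.3% ± 0.852 and Fgf17 10.8% ± 1.41, where in ESC total RNA Fgf17 took 3.48% ± 2.17 and Fgf5 0.0269%. These 22 genes include Fgf11, Fgf12, Fgf13 and Fgf14, intracellular homologues that are not secreted. Without these 4, in an alternative chosen after the values were seen, the share of Fgf4 in total RNA was 92.5% ± 1.51 in ESCs and 37.7% ± 2.82 in EpiLCs, and that of Fgf5 in EpiLCs 16.3% ± 0.964. The summed level of the 22 genes was lower in EpiLCs, with 164 ± 2.14 CPM per kb in ESC total and 114 ± 3.37 CPM per kb in EpiLC total libraries, and so was that of the other 18, with 162 ± 2.17 and 107 ± 3.25 CPM per kb. The exact two-sided permutation test gave p = 0.1 for the share of Fgf4 and for that of Fgf5 in each assay (n = 3 against 3), which is the smallest p that 3 against 3 libraries can give, and 0.1 after adjustment over the 6 shares tested. Ordered by level in EpiLC total RNA, Fgf4 stood above Fgf8, which overlapped Fgf5, and these stood above Fgf15 and Fgf17, which overlapped. In ESC total RNA the order was Fgf4, Fgf17, Fgf15, Fgf8 and Fgf5, with overlap between the last pair.

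**Figure D2:**
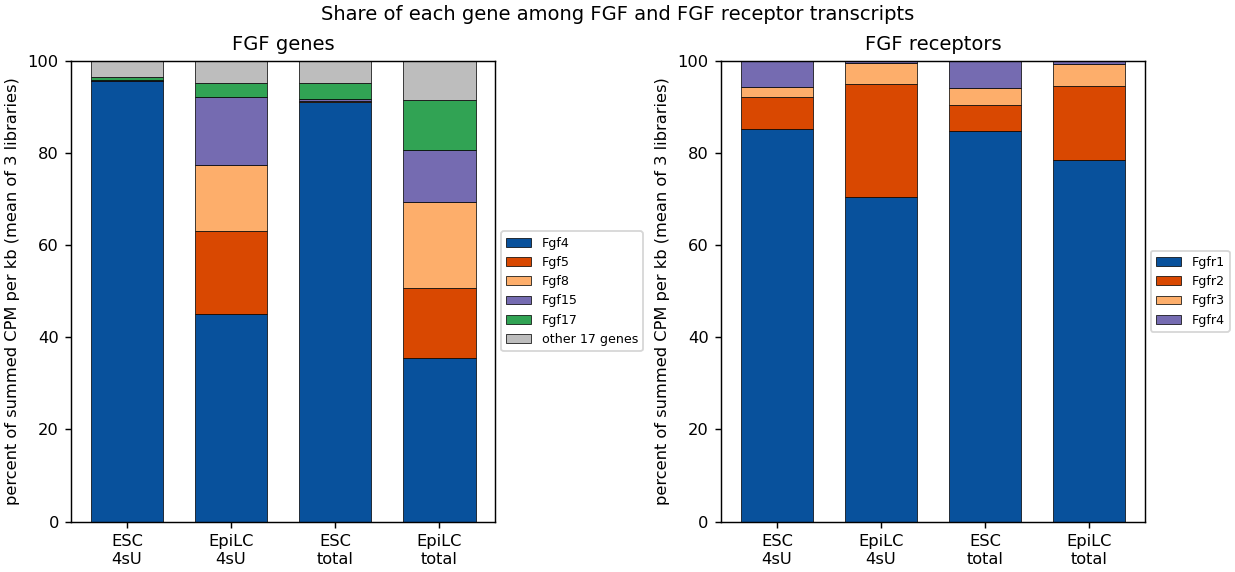
Mean share over 3 libraries of each gene in the summed CPM per kb of the 22 FGF genes, intracellular homologues included (left) and the 4 receptor genes (right), in percent, for each group. Fgf4 falls from 91.2% to 35.4% of this sum in total RNA, and Fgfr1 remains the largest receptor part at 84.8% and 78.5%.

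Fgfr1 (ENSMUSG00000031565.18, chromosome 8, 25518759 to 25575718, + strand) was the receptor with the highest level per kb in every group and did not overlap the next receptor in any of them. Total RNA was 45.3, 48.4 and 82.2 CPM in ESCs and 128, 121 and 130 CPM in EpiLCs. ESC replicate 3 was the highest ESC library and the closest to the EpiLCs. The log2 fold change was 1.18 ± 0.17 with an adjusted p of 1.87e-05, and 1.43 without ESC total replicate 3. It was 1.007 without ESC total replicate 1 and 1.069 without ESC total replicate 2, close to the fold threshold. Nascent RNA moved less, with 67.3, 56.5 and 75.9 CPM in ESCs and 104, 92.8 and 88.4 CPM in EpiLCs. The nascent log2 fold change of 0.54 ± 0.19 had an adjusted p of 0.0304 and stayed under the fold threshold, so it was not called.

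Fgfr2 (ENSMUSG00000030849.18, chromosome 7, 130162451 to 133123350, − strand) rose from a low level. It ranked next after Fgfr1 in mean level per kb in every group, overlapping Fgfr4 in ESCs and standing apart from Fgfr3 in EpiLCs. Total RNA was 2.43, 3.67 and 5.60 CPM in ESCs and 27.7, 20.1 and 29.2 CPM in EpiLCs, and nascent RNA was 5.32, 4.83 and 5.97 CPM against 41.5, 27.8 and 30.0 CPM. All EpiLC libraries lay above all ESC libraries. The log2 fold change was 2.84 ± 0.25 in total RNA with an adjusted p of 1.54e-07 and 2.60 ± 0.34 in nascent RNA with an adjusted p of 2.09e-05. The table gives this gene a span of 2961 kb, because 2 of its 21 exon blocks, 314 of 5115 exon bases, lie beyond the RefSeq start site at position 130266808. All 314 bases are shared with exons of Ctbp2 on the same strand, where a read could be given to neither gene.

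Fgfr3 (ENSMUSG00000054252.17, chromosome 5, 33721724 to 33737068, + strand) rose at a lower level. It had 30, 33 and 28 reads in ESC total and 66, 70 and 53 reads in EpiLC total libraries, or 2.05 ± 0.609 and 6.42 ± 1.06 CPM (SD, n = 3). Its 4sU libraries held 8, 5 and 7 reads in ESCs and 29, 24 and 13 reads in EpiLCs. The deeper ESC total libraries make the reads look closer than the levels, which did not overlap. The log2 fold change was 1.73 ± 0.24 with an adjusted p of 1.76e-05 in total RNA and 1.86 ± 0.41 with an adjusted p of 0.00178 in nascent RNA.

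Fgfr4 (ENSMUSG00000005320.9, chromosome 13, 55152640 to 55168759, + strand) was the only receptor that fell and the only member below the filter. It had 31, 57 and 29 reads in ESC total and 4, 11 and 3 reads in EpiLC total libraries, and 17, 17 and 6 against 1, 1 and 2 reads in 4sU libraries. The ESC libraries lay above the EpiLC libraries once scaled, at 2.51 ± 0.614 against 0.596 ± 0.394 CPM in total RNA (SD, n = 3). On summed reads the ESC level was 4.07 times the EpiLC level in total RNA (95% exact interval 2.46 to 7.10) and 8.71 times in nascent RNA (3.15 to 33.5). The fit without a filter on low counts gave log2 fold changes of −2.15 ± 0.45 and −2.62 ± 0.59, with adjusted p-values of 0.000795 and 0.0024.

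The summed level of the 4 receptors was 13.2 ± 4.46 CPM per kb in ESC total and 30.9 ± 1.72 CPM per kb in EpiLC total libraries, while the sum over the FGF genes went the other way. Fgfr1 held 84.8% ± 1.97 of it in ESCs and 78.5% ± 1.47 in EpiLCs, and Fgfr2 5.69% ± 0.874 and 16.2% ± 2.26. In nascent RNA the Fgfr1 share was 85.2% ± 1.99 and 70.4% ± 2.82, and the Fgfr2 share 7.03% ± 0.276 and 24.7% ± 2.53. The exact permutation test of the Fgfr1 share gave the smallest possible p of 0.1 in each assay (n = 3 against 3). Fgfr4 held 5.90% ± 1.57 of the receptor sum in ESC total RNA, where its level overlapped those of Fgfr2 and Fgfr3, and 0.597% ± 0.430 in EpiLC total RNA, where it was last and apart from Fgfr3. Gene counts sum all transcripts of a receptor, so the alternative immunoglobulin-domain exons that set which ligands a receptor binds could not be resolved.

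**Figure D3:**
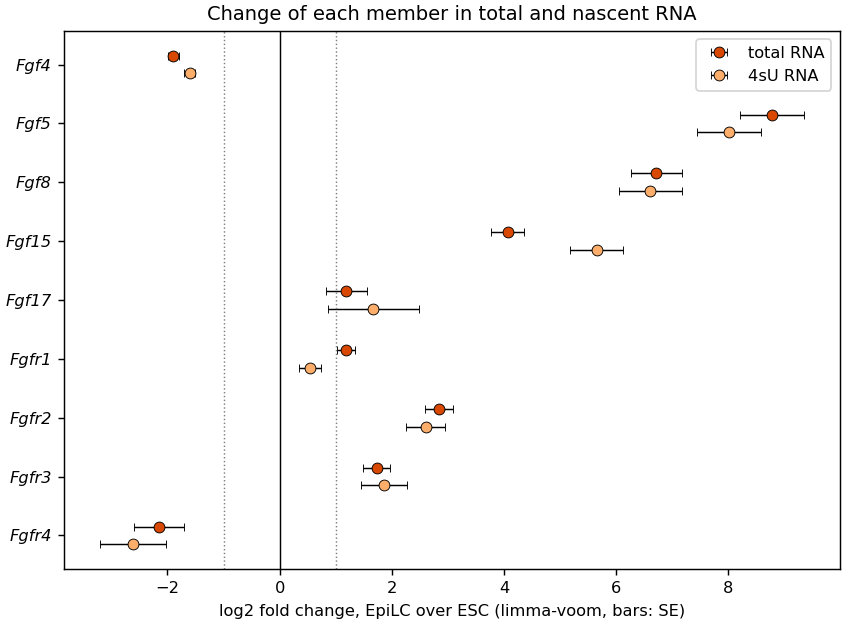
Log2 fold change of EpiLC over ESC for each member in total RNA (dark) and 4sU RNA (light), from limma-voom, with bars for the SE and dotted lines at the fold threshold. Fgfr4 is from the fit without a filter on low counts. The total and nascent changes have the same sign for all 9 members, and those of Fgf15 and Fgfr1 lie farthest apart relative to their errors.

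Whether a member's total RNA changed more than its nascent RNA was asked with the interaction of cell type and assay, the mRNA stability change. None of the 8 tested members was called by limma-voom without a replicate block, where 1.54% of all genes tested were called, 1.24% higher and 0.305% lower. Fgf15 and Fgfr1 were the 2 members with an unadjusted limma-voom p under 0.05. Fgf15 had an estimate of −1.59 ± 0.56 with an adjusted p of 0.11, and it was called by edgeR's quasi-likelihood test (−1.63, adjusted p = 0.0465) and by DESeq2 (−1.73, adjusted p = 0.0101). Limma-voom also called it with a replicate block, of number (−1.61, adjusted p = 0.0421) or of cell type and number (−1.55, adjusted p = 0.0345). These tools and blocks called no other member. Fgfr1 had an estimate of 0.64 ± 0.26 with an adjusted p of 0.15, and Fgf4 −0.29 ± 0.14 with an adjusted p of 0.234. The estimate of Fgfr1 moved with single libraries, to 0.88 (adjusted p = 0.00146) without ESC total replicate 3, to 0.81 (adjusted p = 0.000215) without both ESC replicate 3 libraries and to 0.41 (adjusted p = 0.385) without ESC total replicate 1, each under the fold threshold. That of Fgf4 was −0.47 (adjusted p = 0.0517) without ESC 4sU replicate 2, and −0.18 without both ESC replicate 3 libraries. For Fgf5, Fgf8, Fgf17, Fgfr2 and Fgfr3 the estimate was between −0.48 and 0.78, with an SE of 0.42 to 0.89, so a change of 2-fold lay within 2 SE of each estimate. Without ESC total replicate 3 the Fgf17 stability change was −0.997 (adjusted p = 0.135).

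Relative stability, log2 of total over 4sU RNA, placed the members at different heights. In EpiLCs Fgf4 gave −1.35, −1.28 and −1.25 in the 3 library pairs of the same number, Fgf5 −1.21, −1.17 and −1.15, and Fgf15 −1.21, −1.22 and −1.52. These 3 ligands were lower in total than in nascent RNA in every pair. They were called lower, with log2 differences of −1.29 ± 0.10, −1.17 ± 0.12 and −1.29 ± 0.15 and adjusted p-values of 4.38e-08, 4.67e-07 and 1.59e-06, where 47.4% of all genes tested were called and 23.3% were lower. Fgf8 was lower by 0.56 ± 0.14 on the log2 scale, and Fgfr1 was higher by 0.41 ± 0.18, neither past the fold threshold. In ESCs, 2 members were called lower, where 50.5% of all genes were called and 26.8% were lower: Fgf4 at −1.004 ± 0.09 and Fgf5 at −1.95 ± 0.80, the latter from 5 total and 4 nascent reads, with adjusted p-values of 1.27e-07 and 0.0363. Fgf4 lay at the fold threshold and was not called without ESC 4sU replicate 2 (−0.95) or without ESC total replicate 3, EpiLC total replicate 1 or EpiLC total replicate 2 (−0.999 each), nor without EpiLC total replicate 3, where it lay just inside the threshold. Without a filter on low counts it was −0.79 and not called. Fgf5 was not called without ESC 4sU replicate 1 (−2.14), 2 (−1.90) or 3 (−1.95) or ESC total replicate 2 (−0.90), nor by edgeR (−1.30, adjusted p = 0.184) or DESeq2 (−1.48, adjusted p = 0.155). Fgf17 was 1.42 ± 0.74 in ESCs with an adjusted p of 0.0903, not called in the main fit. It was called under 8 of 25 alternatives, among them edgeR (1.44, adjusted p = 0.0169) and DESeq2 (1.39, adjusted p = 0.0081). With cell type and number as a replicate block it was 1.42 with an adjusted p of 0.000114. Without ESC total replicate 3 it was 1.94 with an adjusted p of 0.000117. These values are relative to all genes of a library, whose median was 0.03 in ESCs and 0.15 in EpiLCs. Other scalings moved that median by −0.07 to −0.23 and −0.15 to −0.22, and the members with it. The share of calls that were higher, 46.9% in ESCs, was 36.9% with library totals, and 51.0% in EpiLCs was 40.3% with TMM within each assay.

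**Figure D4:**
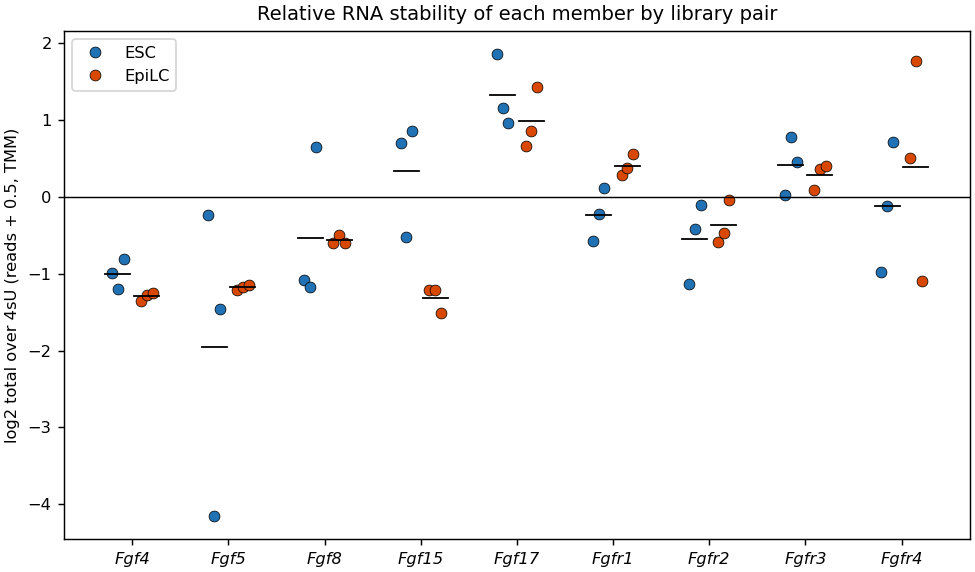
Log2 of total over 4sU RNA of each member for each pair of libraries with the same number (points) and their mean (bars), from TMM-adjusted reads with 0.5 added. Fgf15 lies between −0.52 and 0.86 in ESC pairs and between −1.21 and −1.52 in EpiLC pairs, and the ESC values of Fgf5, made of 0 to 4 reads, are the most spread.

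The other genes of FGF signalling were counted from lists, to be read against the 16.3% of all tested genes called higher and the 11.2% called lower in total RNA. Of 17 further FGF genes 5 passed the filter: Fgf13, an intracellular FGF homologue, was called higher in total RNA at 2.93 ± 0.20, Fgf10 (−2.15 ± 0.31) and Fgf3 (−1.35 ± 0.26) were called lower, and Fgf1 (0.67 ± 0.26) and Fgf11 (−0.77 ± 0.23) were not called. Among 17 tested of 22 co-receptors and proteoglycans, 6 were higher and 3 lower in total RNA, with a median log2 fold change of 0.75 against 0.02 over all genes. Fgfbp1, a carrier protein that releases FGFs from the matrix, was higher at 3.01 ± 0.26 and the glypican Gpc1 at 1.62 ± 0.11. The neural adhesion molecule Ncam1 (−2.07 ± 0.13), the syndecan Sdc4 (−1.53 ± 0.14) and Flrt2 (−1.20 ± 0.18) were lower. Fgfrl1, a receptor-like protein without a kinase domain, was higher at 1.11 ± 0.11 and was the single gene of this list called in the stability change, at 1.12 with an adjusted p of 0.015. That call was lost without ESC 4sU replicate 3 (0.92), ESC total replicate 1 (0.97), EpiLC 4sU replicate 1 (1.06, adjusted p = 0.0541) or EpiLC 4sU replicate 2 (1.06, adjusted p = 0.0554), and without a filter (1.02, adjusted p = 0.0503).

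Of 21 tested enzymes of heparan sulfate synthesis and editing, 2 were higher and 2 lower in total RNA, where 27.6% of all genes were called, and 17 were not called. In nascent RNA 2 were higher and 5 lower, where 25.5% of all genes were called. At adjusted p alone 15 of the 21 were called in total RNA, where 4624 of 14731 genes were called higher and 4729 lower. The sulfotransferase Hs6st2 was higher at 6.32 ± 0.35 and the sulfatase Sulf1 at 1.59 ± 0.18, while Hs3st3b1 (−2.62 ± 0.27) and Extl1 (−2.52 ± 0.36) were lower. Among the adaptors and members of the RAS-ERK core, genes called higher included Sos2 (1.18 ± 0.18), an exchange factor for RAS, and the kinase Braf (1.15 ± 0.11). Frs3, a docking protein of FGF receptors, was lower (−1.72 ± 0.15). Of the 21 genes of this list, all tested, 17 were not called in total RNA, where 27.6% of all genes were called. At adjusted p alone 16 of them were called, and the list's median was 0.42.

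Of 21 tested feedback and target genes of ERK (Spry3 had no match in the table), 8 were higher in total RNA and 13 were not called, with a median of 0.75, where 16.3% of all genes were called higher and the median of all was 0.02. The ERK phosphatase Dusp6 rose by 3.79 ± 0.34, Myc by 3.33 ± 0.35, Spred3, an inhibitor of RAS-ERK signalling, by 2.46 ± 0.14 and the phosphatase Dusp4 by 1.75 ± 0.11, on the log2 scale. Other targets commonly read as FGF output, named after their values were seen, were not called: Etv5 at 0.08 ± 0.14, Etv4 at −0.58 ± 0.20, Spry2 at −0.16 ± 0.14 and Spry4 at 0.10 ± 0.73. LIF and both inhibitors of 2i, that of MEK included, were present in the ESC groups and absent from the EpiLC groups. Their removal, the change of cell state and the change of ligands and receptors cannot be told apart in these genes.

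**Figure D5:**
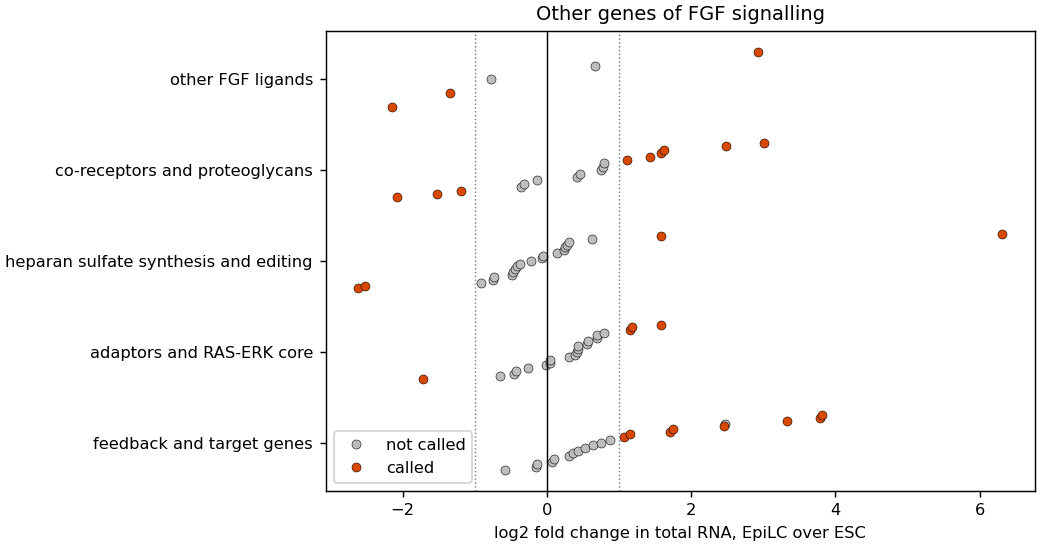
Log2 fold change in total RNA, EpiLC over ESC, of every tested gene in 5 lists of FGF signalling genes, spread vertically within a list only to separate points. Called genes are coloured, and dotted lines mark the fold threshold. In the list of feedback and target genes 8 genes are called higher, and in that of heparan sulfate enzymes Hs6st2 stands alone at 6.32.

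Genes near the members were examined next. Within 200 kb of a member, 71 other genes were tested, and 13 were called higher and 6 lower in total RNA. These counts are near the 16.3% and 11.2% over all genes. Around Fgf4 and Fgf15, the tested neighbours were Fgf3, called lower, and LTO1 and Ccnd1, which were not called (−0.28 and 0.44). The cluster on chromosome 7 thus held Fgf3 and Fgf4, lower in EpiLCs, and Fgf15, higher. Near Fgf5, Prdm8, a histone methyltransferase family gene 65.2 kb away, was higher by 3.71. Near Fgf8, Fbxw4 was higher by 1.20, and 6 neighbours were not called. Near Fgf17, 5 of 11 tested neighbours were higher (Dok2, Bmp1, Xpo7, Hr and Nudt18, by 4.39, 2.55, 1.17, 1.13 and 1.08) and Dmtn, 0.157 kb away, was lower by 1.20 on the log2 scale. Near Fgfr1, Letm2, 2.77 kb away, was higher by 2.28, as was the predicted gene Gm45343 by 1.41. For Fgfr2, whose window is widened by its span, 4 of 25 tested genes were higher and 4 lower. None of the 7 tested neighbours of Fgfr3 or the 8 of Fgfr4 was called by limma-voom.

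The genes whose pattern was most like that of a member were found by Pearson's r of log2 CPM over the 12 libraries among 12312 protein-coding genes. The tested members are counted in the 12312 but were left out of the ranking, so no member could be named. The 12 libraries fall into 4 groups, so r mostly reflects the group means and is given as a description. Closest to Fgf4 were Mtif3 (r = 0.99) and Zcchc8 (0.99), to Fgf5 Jph1 (1.00) and Clcn4 (0.99), to Fgf8 Samd4 (1.00) and Shroom2 (0.99), and to Fgf15 Grm6 (0.99) and Cxcl16 (0.99). Closest to Fgf17 were Frem2 (0.97) and Trh (0.97), to Fgfr1 Pitpnm2 (0.98) and Ppp1r9a (0.97), to Fgfr2 Kcnj3 (0.99) and Cdh24 (0.99), and to Fgfr3 Ybx2 (0.99) and Fam43b (0.98). No gene of the other FGF signalling lists was among these, and likeness between members was not examined.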

How the data were processed

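Gene-level read counts, not normalized, were deposited in 1 table. Per the file header and the submitters' processing notes, the authors trimmed reads with cutadapt 1.14, aligned them to mm10 with STAR 2.5.3a, kept unique alignments and counted reads over exons by strand with featureCounts 1.5.3, using GENCODE M14 without ribosomal RNA. No option to count reads that overlap several genes was set, so shared exons lose reads. Of 51559 entries, 92 were spike-in sequences with 0 reads, which were left out. GENCODE M21 gave a symbol for 51274 gene IDs.

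From these counts, a limma-voom model with a term for group was fitted over all 12 libraries, after the study's methods, to genes that reached 3 CPM in 3 or more libraries. It used R 4.3.3, limma 3.58.1 and TMM factors of edgeR 4.0.16. Adjusted p-values in the text come from this fit unless another tool is named. DESeq2 1.42.0 and edgeR's quasi-likelihood test were alternatives. Levels are CPM on TMM-adjusted library sizes, and levels of different genes are compared per kb of exon length in the table. The script was tested on simulated data with 200 changed genes.

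The 9 members are a given list, and the members and gene lists were chosen with earlier results of these data known. The text names all members, and in each list up to 4 called genes of the largest fold change with a mean of at least 10 CPM, plus those needed to account for counts of 5 or fewer. One named result of these lists is not reported here. No replicate pair agreed within sampling noise (chi-square per degree of freedom of at least 1.37). ESC 4sU and ESC total libraries of the same number had correlations of deviations of 0.194, 0.335 and 0.437. Only number 3 was set apart, with −0.411 to −0.185 against unlike numbers. Numbers 1 and 2 were not told apart, since 4sU 2 with total 1 gave 0.325 and 4sU 1 with total 2 gave 0.101. No other pair of groups had all same-number correlations above 0.1, the EpiLC assays giving 0.082, 0.039 and 0.021. Cell type and number together were therefore tried as a replicate block. Versions of Python, scipy and pandas were 3.11.15, 1.17.1 and 2.3.3.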

Additional observations from a re-analysis of the deposited data

How the results depend on the processing

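The direction and call of Fgf4, Fgf5, Fgf8, Fgf15, Fgfr1, Fgfr2 and Fgfr3 in total RNA held under every alternative in which they were tested, and likewise in nascent RNA for all of these but Fgfr1, which was called (0.54) only at adjusted p alone. Fgfr3 was not tested at a minimum of 10 CPM. Fgf17 in total RNA was not called with sample quality weights (0.73), without ESC total replicate 3 (0.67) or without both ESC replicate 3 libraries (0.66). Its nascent change was called under 8 of 24 alternatives. In the stability change, 1 member was called, Fgf15, by edgeR, by DESeq2 and with a replicate block of number (−1.61, adjusted p = 0.0421) or of cell type and number (−1.55, adjusted p = 0.0345), and its adjusted p ran from 0.0101 to 0.211 over all alternatives. With the block of number, 281 of all genes were called higher and 73 lower in the stability change. In nascent RNA the replicate block of number called 7 members, against 6 in the main fit, where 25.5% of all genes tested were called. Of those numbers only ESC replicate 3 deviated together in both assays and apart from the other numbers.

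Members called in ESC total against nascent RNA numbered 2 in the main fit, where 50.5% of all genes tested were called. They numbered 1 when only the libraries compared were fitted, up to 3 in other settings and 0 to 2 with 1 library left out. In EpiLCs they numbered 5 at adjusted p alone, where 6072 of 14731 genes tested were called higher, apart from those called lower. Values of members that were not called changed sign. For the stability change of Fgf8 (main value 0.10) this happened without a filter (−0.041), at 10 CPM (−0.065), in edgeR (−0.24), in DESeq2 (−0.31) and with the replicate block of cell type and number (−0.001). With 1 library left out, the stability change ran from −0.27 to 1.40 for Fgf5, −0.47 to 0.52 for Fgf8, −0.14 to 0.45 for Fgfr2 and −0.41 to 0.14 for Fgfr3. Total against nascent RNA in ESCs ran from −0.045 to 0.58 for Fgf15 and −0.004 to 0.54 for Fgfr3, and that in EpiLCs from −0.02 to 0.40 for Fgfr3. The causes were not tested.

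Of 64 pairwise orders of member levels within a group, at least 63 held under each alternative. TPM changed 29 of 36 levels by over 1 SD, since its unit differs. Leaving the intracellular homologues out of the FGF gene sum, a choice made after seeing the data, moved the shares of Fgf4 in ESC 4sU and Fgf5 in EpiLC total RNA by over 1 SD. Over all genes, calls in total RNA were 2407 higher and 1652 lower, 4241 and 2866 without a filter, 1487 and 1138 at 10 CPM, and 4624 and 4729 at adjusted p alone. In nascent RNA the 1756 higher and 1995 lower became 2848 higher without a filter, 1220 lower at 10 CPM, and 3485 and 4246 at adjusted p alone. Stability calls (182 higher, 45 lower) ranged from 39 to 738 higher and 21 to 277 lower, and 80.2% of them were higher against 66.7% with median-of-ratios scaling. Without ESC total replicate 3 there were 572 higher, and without EpiLC 4sU replicate 1 there were 39. Depth limits Fgfr4, Fgfr3 and the ESC values of Fgf5, Fgf8 and Fgf15.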
